A study of Mus musculus with 9 samples.

Results

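The genes described here are 42 interferon-stimulated genes of the mouse, of 34669 genes in the table of FPKM values (fragment counts scaled to gene length and library size). They were chosen by name from what is known of them, but when earlier results of these data were already known. They are 10 genes of the Ifit, Oas and Mx families, 11 guanylate-binding protein (Gbp) and immunity-related GTPase (Irg) genes, 4 transcription factors, 4 nucleic acid sensors, 3 genes of the ISG15 system and 10 other effectors. RNA of the renal cortex of male wild-type C57BL/6 mice, 10 weeks old, was sequenced in 9 libraries. In 3 libraries the mice had both renal pedicles clamped for 30 min (bilateral ischemia-reperfusion injury, bIRI) and were gavaged daily with TJ0113 starting 3 days before the operation and ending at sacrifice on day 14 (the TJ0113 libraries). In 3 the mice had the same injury and were gavaged with vehicle on the same days (the vehicle libraries). In 3 the mice were operated on in the same way with no clamp (the sham libraries), and neither a gavage nor a day of sacrifice is recorded for them. TJ0113 is a code name, and the labels say nothing of its dose. The labels do not say that the libraries of a group come from separate mice, so p-values measure the spread between these libraries.

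Interferons are secreted proteins that cells release on sensing foreign or misplaced nucleic acid. Type I interferons (interferon alpha and beta) signal through the receptor chains Ifnar1 and Ifnar2 to a complex that holds Stat2 and Irf9 and binds the interferon-stimulated response element (ISRE) in front of genes such as those of the Ifit, Oas and Mx families. Interferon gamma, made by T and NK cells, signals through Ifngr1 and Ifngr2 to factors that bind the gamma-activated site (GAS), and it is known as a strong inducer of the Gbp and Irg genes. Many members respond to both kinds, so the family names below are names and not a readout of the interferon involved.

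Sequencing depth, read from the equal steps in which low FPKM values rise within a library, was 62500000 to 85400000 steps per library (rounded). Of the 42 members, 41 had a mean of at least 0.5 FPKM and were tested, in limma on log2(FPKM + 1) with Benjamini-Hochberg adjustment over 15453 genes and a threshold of 0.05. The median gene itself stood 0.26 (TJ0113 minus sham), 0.30 (vehicle minus sham) and -0.03 (TJ0113 minus vehicle) away from 0 on this log2 scale, so each log2 change below is given relative to the median gene, with its SE, while the test is of the difference before that subtraction. The scale understates changes of genes at low FPKM. All 10 proximal tubule markers of the list used to check the labelled tissue were found in every library, and their lowest value was 10.4 FPKM (Cubn, in a TJ0113 and a vehicle library). They summed to 8280 to 28900 FPKM in TJ0113 libraries, 2260 to 28500 FPKM in vehicle libraries and 41700 to 49000 FPKM in sham libraries.

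A pair of libraries stood apart in these genes. Vehicle library 2 was the lowest of the 6 injured libraries for 30 of the 41 members tested (73.2 percent), against 35.7 percent of all genes tested. Sham library 1 was the highest of the 3 sham libraries for 32 of 41 (78.0 percent), against 46.6 percent of all genes tested. Over the 41 members the mean log2 level above the sham mean was 0.56, 0.59 and 0.59 in TJ0113 libraries 1 to 3, 0.54, 0.29 and 0.77 in vehicle libraries 1 to 3 and 0.18, -0.05 and -0.13 in sham libraries 1 to 3. The vehicle libraries therefore spread from 0.29 to 0.77, a range that holds all 3 TJ0113 libraries. Macrophage markers had the same low library among the injured, with summed levels of 590, 507 and 1010 FPKM in TJ0113 libraries, 938, 297 and 1790 FPKM in vehicle libraries and 60.8, 45.3 and 41.8 FPKM in sham libraries. Endothelial markers summed to 106, 188 and 103 FPKM in TJ0113 libraries, 113, 54.5 and 143 FPKM in vehicle libraries and 142, 86.1 and 71.5 FPKM in sham libraries, so that vehicle library 2 was the lowest of the 9 and sham library 1 the highest of its group there too. The part of either cell type in the interferon-stimulated genes was not tested.

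**Figure D1:**
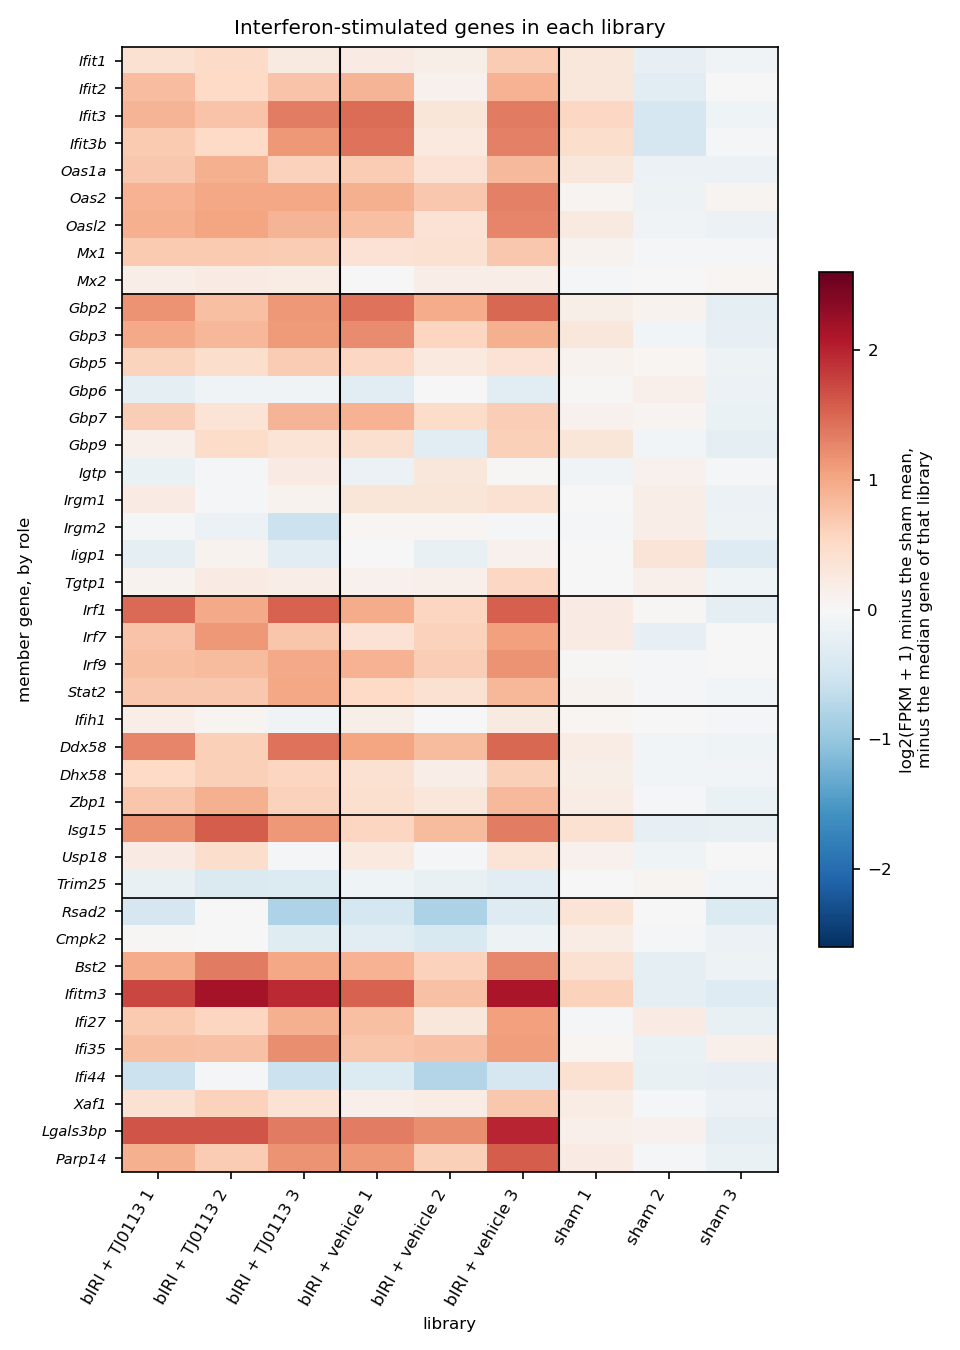
Heat map of 41 members (rows, by role) in 9 libraries (columns), as log2(FPKM + 1) minus the sham mean and minus the median gene of that library. Most members are red in all 6 injured libraries, palest in vehicle library 2, while Rsad2, Ifi44, Trim25 and Gbp6 are below 0 in all 6, and Irgm2 is as blue as Ifi44 in TJ0113 library 3.

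On day 14 after injury most of these genes were higher than in sham cortex, with or without TJ0113. In the TJ0113 libraries 27 of the 41 members rose above sham and none fell, with a median log2 change of 0.69 relative to the median gene, and 28.9 percent of all genes tested rose. In the vehicle libraries 31 of 41 rose and none fell, with a median of 0.59, and 31.3 percent of all genes tested rose. With quantile normalization 19 of 41 rose with vehicle, beside 13.2 percent of all genes. With no filter on low values 20 of 42 rose with vehicle, beside 7.17 percent. That share is of 34669 genes and not 15453, since genes below the filter then count too. As 41 of the 42 members passed the filter, it cannot be set directly beside the 31.3 percent. All 3 TJ0113 libraries lay above all 3 sham libraries for 34 of the 42 members, against 50.5 percent of all genes tested, and all 3 vehicle libraries did so for 30 of 42, against 45.9 percent. Between TJ0113 and vehicle no member passed, and 0.0 percent of all genes did. The comparisons with sham share the sham libraries, so their counts are not independent. In bulk tissue fewer cells of a type and less RNA per cell cannot be told apart. Leaving out sham library 2 or sham library 3 left the same 5 members called between vehicle and sham (Gbp2, Ifi35, Irf9, Lgals3bp and Oas2), when 4.75 or 5.67 percent of all genes were called higher. Between TJ0113 and sham 13 members were then called without sham library 2 and 15 without sham library 3, and 16 without TJ0113 library 3, when 7.02, 8.14 and 8.29 percent of all genes were called higher.

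**Figure D2:**
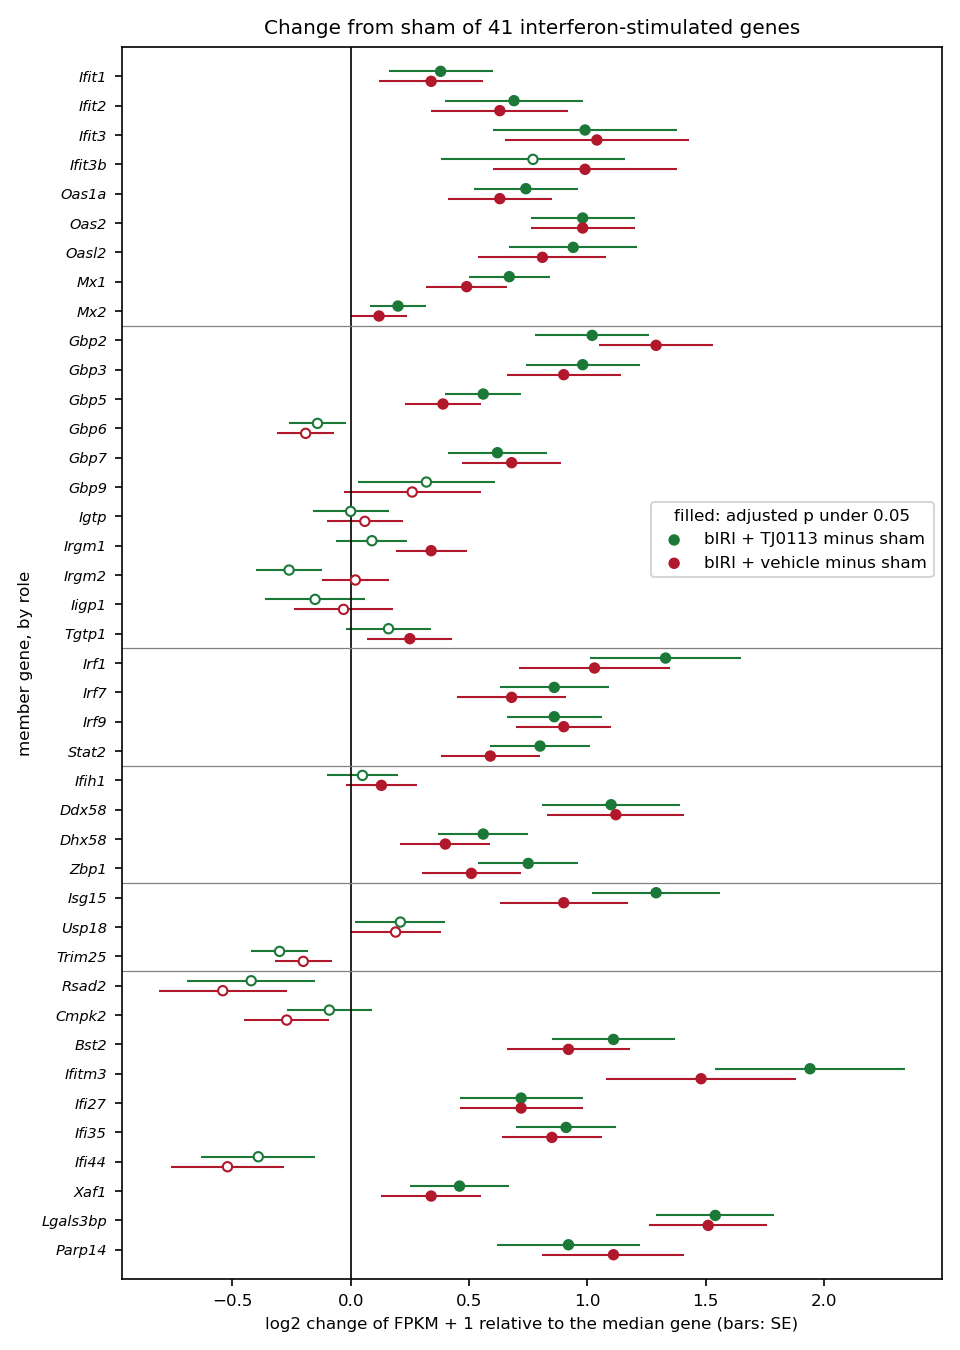
Log2 change from sham of 41 members relative to the median gene, with SE bars, for TJ0113 (green, upper of each pair) and vehicle (red, lower); filled points had an adjusted p under 0.05. The Ifit, Oas and Mx genes and the transcription factors lie right of 0 in both groups, and the Irg genes lie between -0.26 and 0.34.

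The 4 Ifit genes lie in 1 cluster on chromosome 19 and encode tetratricopeptide proteins that bind foreign RNA and hold back its translation. Ifit3 and Ifit3b are near copies: 51.2 percent of the 50-base windows of Ifit3 transcripts also occur in Ifit3b, so their separate values are uncertain. The 250 bases before the RefSeq start of each (GRCm38.p6, plus strand, chr19:34583279-34583528 and chr19:34607707-34607956) are printed because they share most of their letters once shifted against each other and each holds a pair of matches to the ISRE core (GAAA, any 2 bases, GAAA), shown in capitals as read on the opposite strand.
Ifit3: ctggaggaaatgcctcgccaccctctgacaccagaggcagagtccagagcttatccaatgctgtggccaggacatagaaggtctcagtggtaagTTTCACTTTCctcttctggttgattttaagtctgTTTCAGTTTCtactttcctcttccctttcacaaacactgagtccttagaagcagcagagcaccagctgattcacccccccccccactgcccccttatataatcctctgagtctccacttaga
Ifit3b: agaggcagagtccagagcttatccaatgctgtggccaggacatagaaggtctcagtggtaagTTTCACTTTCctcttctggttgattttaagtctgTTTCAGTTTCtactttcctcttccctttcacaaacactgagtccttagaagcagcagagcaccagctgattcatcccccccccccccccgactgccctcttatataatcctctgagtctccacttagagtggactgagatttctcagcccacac
The nearest match starts 122 bases before the start of Ifit3 and 154 bases before that of Ifit3b.

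Ifit3 was at 24.3, 21.1 and 36.1 FPKM in TJ0113 libraries 1 to 3, 38.5, 14.8 and 39.2 FPKM in vehicle libraries and 16.2, 7.47 and 9.63 FPKM in sham libraries. Ifit3b was at 6.97, 5.85 and 10.6 FPKM in TJ0113 libraries, 12.9, 4.49 and 13.1 FPKM in vehicle libraries and 4.90, 2.09 and 3.08 FPKM in sham libraries. In both genes vehicle library 2 lay below sham library 1, so vehicle and sham overlapped, while all TJ0113 libraries lay above sham. Ifit3 rose above sham by 0.99 ± 0.39 with TJ0113 (adjusted p = 0.0371) and by 1.04 ± 0.39 with vehicle (adjusted p = 0.0298). Ifit3b rose by 0.99 ± 0.39 with vehicle (adjusted p = 0.0321) and stood at 0.77 ± 0.39 with TJ0113, where it did not pass (adjusted p = 0.0638). Ifit2 was at 6.38, 4.93 and 6.66 FPKM in TJ0113 libraries, 7.20, 3.22 and 8.20 FPKM in vehicle libraries and 3.51, 1.91 and 2.54 FPKM in sham libraries. Its order of libraries was the same, and it rose by 0.69 ± 0.29 with TJ0113 (adjusted p = 0.0326) and by 0.63 ± 0.29 with vehicle (adjusted p = 0.035). Ifit1 was at 2.87, 3.05 and 2.74 FPKM in TJ0113 libraries, 2.6, 2.02 and 4.34 FPKM in vehicle libraries and 2.14, 1.13 and 1.32 FPKM in sham libraries. Its calls lay just under the threshold, with adjusted p of 0.0496 (TJ0113) and 0.0492 (vehicle), and each was made in 8 of 19 alternatives. None of the 4 Ifit genes was called between vehicle and sham without vehicle library 1 or without vehicle library 3. None was called between TJ0113 and sham without TJ0113 library 1 or without TJ0113 library 3. In neither comparison was any called without sham library 2, without sham library 3 or with no filter on low values. With median-ratio scaling or quantile normalization no Ifit gene was called in either comparison with sham. For Ifit3 the adjusted p was then 0.0673 and 0.0652 with TJ0113 and 0.0601 and 0.0566 with vehicle.

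The Oas genes, which make the short adenylate chains that switch on the RNA-degrading enzyme RNase L, were above sham in every injured library. Oas2 was at 2.73, 2.89 and 3.30 FPKM in TJ0113 libraries, 2.98, 1.97 and 4.72 FPKM in vehicle libraries and 0.805, 0.518 and 0.736 FPKM in sham libraries. No injured library overlapped sham, and Oas2 rose by 0.98 ± 0.22 with TJ0113 (adjusted p = 0.00879) and by 0.98 ± 0.22 with vehicle (adjusted p = 0.00878). Of the Ifit, Oas and Mx genes it was the 1 called between vehicle and sham without sham library 2 or 3. Oasl2, a related protein, was at 3.93, 4.08 and 4.09 FPKM in TJ0113 libraries, 3.65, 2.12 and 6.20 FPKM in vehicle libraries and 1.64, 1.04 and 0.945 FPKM in sham libraries. It rose by 0.94 ± 0.27 with TJ0113 (adjusted p = 0.013) and by 0.81 ± 0.27 with vehicle (adjusted p = 0.0168). Oas1a, of whose windows 57.6 percent also occur in Oas1g, was at 3.14, 3.70 and 3.17 FPKM in TJ0113 libraries, 3.23, 2.05 and 4.32 FPKM in vehicle libraries and 1.71, 0.924 and 0.930 FPKM in sham libraries. It passed in both groups and its groups did not overlap with sham. Oas3 stayed below the filter and was tested in the fit with no filter alone, where it was called above sham with TJ0113 (adjusted p = 0.0447) and with vehicle (adjusted p = 0.0428). It was at 0.270, 0.204 and 0.120 FPKM in TJ0113 libraries, 0.161, 0.180 and 0.272 FPKM in vehicle libraries and 0.0424, 0.0205 and 0.0407 FPKM in sham libraries. These are 163, 115 and 53 steps, 82, 87 and 133 steps and 22, 10 and 20 steps, and every injured library was above every sham library.

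The Mx genes encode dynamin-like GTPases against viruses; the annotation lists Mx2 as a polymorphic pseudogene. Mx1 was at 1.43, 1.33 and 1.55 FPKM in TJ0113 libraries, 1.04, 0.832 and 1.84 FPKM in vehicle libraries and 0.385, 0.238 and 0.209 FPKM in sham libraries. Its mean FPKM was 5.19 times sham with TJ0113 and 4.47 times sham with vehicle. Mx2 was at 0.829, 0.819 and 0.988 FPKM in TJ0113 libraries, 0.691, 0.694 and 1.11 FPKM in vehicle libraries and 0.351, 0.349 and 0.402 FPKM in sham libraries. Both passed in both groups, with adjusted p of 0.00892 and 0.0221 for TJ0113 and of 0.0126 and 0.0303 for vehicle. Relative to the median gene the log2 change of Mx2 was 0.20 ± 0.12 with TJ0113 and 0.12 ± 0.12 with vehicle. The scale understates changes at such low FPKM: the mean FPKM of Mx2 was 2.39 times sham with TJ0113 and 2.26 times sham with vehicle. No injured library of Mx2 overlapped sham. The TJ0113 call of Mx2 was made in 11 of 18 alternatives and its vehicle call in 10 of 18. The vehicle call was lost with median-ratio scaling, and both calls with quantile normalization. In all, 8 of the 9 tested Ifit, Oas and Mx genes rose above sham with TJ0113 (median 0.74) and 9 of 9 with vehicle (median 0.63). Beside them, 28.9 and 31.3 percent of all genes tested rose. With median-ratio scaling these counts were 5 and 4, beside 17.3 and 15.4 percent of all genes. With quantile normalization they were 4 and 4, beside 15.5 and 13.2 percent.

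The Gbp genes encode large GTPases that coat the vacuoles of intracellular microbes, and those measured lie on chromosomes 3 and 5. The 250 bases before the RefSeq start of Gbp2 (GRCm38.p6, plus strand, chr3:142620413-142620662) are shown because they hold a single ISRE core match, in capitals as read on the opposite strand and starting 59 bases before the start, and no match to the GAS letters TTCNNNGAA.
Gbp2: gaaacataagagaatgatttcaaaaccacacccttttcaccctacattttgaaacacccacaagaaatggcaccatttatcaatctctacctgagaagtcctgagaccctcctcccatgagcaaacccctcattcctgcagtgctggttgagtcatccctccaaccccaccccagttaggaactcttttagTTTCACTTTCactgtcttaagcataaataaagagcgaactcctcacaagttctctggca
Gbp2 was at 11.3, 8.06 and 11.7 FPKM in TJ0113 libraries, 14.2, 8.76 and 16.6 FPKM in vehicle libraries and 4.24, 3.82 and 2.85 FPKM in sham libraries. No injured library overlapped sham, and Gbp2 rose by 1.02 ± 0.24 with TJ0113 (adjusted p = 0.00916) and by 1.29 ± 0.24 with vehicle (adjusted p = 0.00753).

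Gbp3 was at 7.69, 6.80 and 9.12 FPKM in TJ0113 libraries, 9.81, 4.96 and 8.70 FPKM in vehicle libraries and 3.66, 2.48 and 2.17 FPKM in sham libraries. It rose by 0.98 ± 0.24 with TJ0113 (adjusted p = 0.00973) and by 0.90 ± 0.24 with vehicle (adjusted p = 0.0112). Gbp7 was at 3.81, 2.83 and 5.10 FPKM in TJ0113 libraries, 5.08, 3.00 and 4.60 FPKM in vehicle libraries and 1.87, 1.70 and 1.31 FPKM in sham libraries. Gbp5, which in mouse macrophages aids inflammasome assembly, was at 1.47, 1.2 and 1.80 FPKM in TJ0113 libraries, 1.53, 0.822 and 1.5 FPKM in vehicle libraries and 0.530, 0.433 and 0.264 FPKM in sham libraries. These 4 Gbp genes rose in both groups, and in each of them every injured library was above every sham library. Gbp9 and Gbp6 did not pass in either group. Gbp9 was at 2.63, 3.47 and 3.54 FPKM in TJ0113 libraries, 3.63, 1.54 and 4.92 FPKM in vehicle libraries and 2.55, 1.62 and 1.36 FPKM in sham libraries, with vehicle library 2 inside the sham range. Gbp6, whose windows are 70.7 percent shared with other genes' transcripts, was at 0.456, 0.550 and 0.707 FPKM in TJ0113 libraries, 0.480, 0.566 and 0.608 FPKM in vehicle libraries and 0.497, 0.560 and 0.275 FPKM in sham libraries. Its changes were -0.14 ± 0.12 with TJ0113 (adjusted p = 0.437) and -0.19 ± 0.12 with vehicle (adjusted p = 0.49).

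The Irg genes encode smaller GTPases of the same defence, split into effectors (Iigp1, Tgtp1) and regulators that keep the effectors off the cell's own membranes (Irgm1, Irgm2, Igtp). Of the Ifit, Oas, Mx, Gbp and Irg families they had the smallest median change from sham in each injured group. The mean log2 level of the 5 genes above the sham mean was -0.03, 0.01 and -0.08 in TJ0113 libraries 1 to 3, 0.06, 0.12 and 0.21 in vehicle libraries 1 to 3 and -0.03, 0.18 and -0.15 in sham libraries 1 to 3, so that the groups overlapped. Sham library 1, the highest sham library for 4 of 4 Ifit genes, was the highest for 0 of 5 Irg genes. In FPKM, every vehicle library lay above every sham library for 4 of 5 Irg genes, against 45.9 percent of all genes tested. Every TJ0113 library did so for 2 of 5, against 50.5 percent. The 250 bases before the RefSeq starts of Irgm1 (GRCm38.p6, minus strand, chr11:48871421-48871670) and Irgm2 (plus strand, chr11:58214727-58214976) are printed. The reason is that the family held both kinds of motif beside small changes relative to the median gene. Irgm2 was added after its values were seen.
Irgm1: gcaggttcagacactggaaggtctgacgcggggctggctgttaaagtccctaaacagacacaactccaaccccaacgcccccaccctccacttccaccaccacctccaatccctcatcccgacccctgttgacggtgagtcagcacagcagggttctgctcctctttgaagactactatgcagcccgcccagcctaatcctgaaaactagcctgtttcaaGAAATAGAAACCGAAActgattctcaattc
Irgm2: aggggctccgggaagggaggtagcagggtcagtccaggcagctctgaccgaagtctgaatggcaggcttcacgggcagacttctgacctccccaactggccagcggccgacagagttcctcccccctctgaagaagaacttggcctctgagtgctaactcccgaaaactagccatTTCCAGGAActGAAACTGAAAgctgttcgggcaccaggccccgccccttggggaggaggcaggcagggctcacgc
In Irgm1 the capitals mark a pair of overlapping ISRE core matches, the nearest starting 24 bases before the start. In Irgm2 they mark a GAS match that starts 75 bases before the start and, after a gap of a few bases, an ISRE core match that starts 64 bases before it. Igtp and Tgtp1 hold the same arrangement, with the GAS match starting 45 and 88 bases and the ISRE core match 34 and 77 bases before the start.

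Irgm1 was at 12.7, 10.1 and 12.3 FPKM in TJ0113 libraries, 14.2, 12.5 and 16.8 FPKM in vehicle libraries and 9.02, 10 and 7.79 FPKM in sham libraries. Every injured library was above every sham library, by little in TJ0113 library 2. Irgm1 rose by 0.34 ± 0.15 with vehicle (adjusted p = 0.0158) and stood at 0.09 ± 0.15 with TJ0113, where it did not pass (adjusted p = 0.0893); the vehicle call was lost with median-ratio scaling (adjusted p = 0.171) and quantile normalization (adjusted p = 0.0653), and the adjusted p ran over 0.00486 to 0.171 across the alternatives, with a change of 0.26 to 0.60. Irgm2 was at 6.82, 6.03 and 4.90 FPKM in TJ0113 libraries, 7.75, 6.74 and 8.16 FPKM in vehicle libraries and 5.79, 6.6 and 5.20 FPKM in sham libraries. The vehicle libraries lay above sham and the TJ0113 libraries overlapped both groups; the changes were -0.26 ± 0.14 with TJ0113 (adjusted p = 0.974) and 0.02 ± 0.14 with vehicle (adjusted p = 0.104). Igtp, which shares bases with Irgm2 on the same strand of chromosome 11 and cannot be fully told from it, was at 7.79, 8.18 and 11.3 FPKM in TJ0113 libraries, 8.32, 10.1 and 10.7 FPKM in vehicle libraries and 7.0, 7.91 and 7.10 FPKM in sham libraries. It passed in neither group.

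Of the effectors, Iigp1 was at 2.05, 2.67 and 2.12 FPKM in TJ0113 libraries, 2.76, 1.89 and 3.46 FPKM in vehicle libraries and 2.12, 2.77 and 1.36 FPKM in sham libraries. Its groups overlapped and its changes were -0.15 ± 0.21 with TJ0113 and -0.03 ± 0.21 with vehicle. Tgtp1, of whose windows 79.4 percent also occur in Tgtp2, was at 1.43, 1.58 and 1.76 FPKM in TJ0113 libraries, 1.58, 1.29 and 2.80 FPKM in vehicle libraries and 0.957, 1.07 and 0.762 FPKM in sham libraries. It rose by 0.25 ± 0.18 with vehicle (adjusted p = 0.0438), a call made in 6 of the 18 alternatives that tested it, and stood at 0.16 ± 0.18 with TJ0113 (adjusted p = 0.0956). In all, 0 of 5 Irg genes rose with TJ0113 (2 at an unadjusted p under 0.05) and 2 of 5 with vehicle, beside 28.9 and 31.3 percent of all genes tested, so the 2 of 5 with vehicle is near that background. Of the Gbp genes 4 of 6 rose in each group, and the difference between families was not tested.

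**Figure D3:**
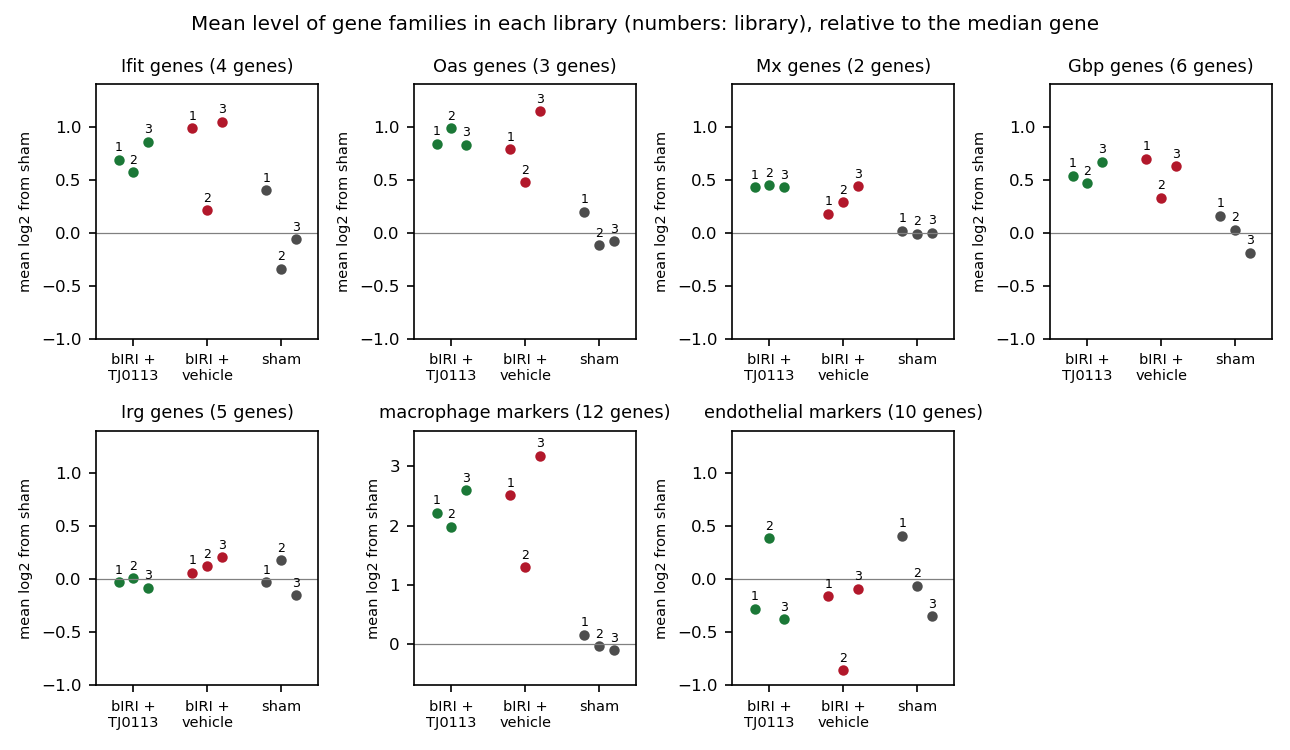
Mean log2(FPKM + 1) of each family above the sham mean, relative to the median gene, in each of 9 libraries (numbers are library numbers). Macrophage and endothelial markers are shown for comparison, the macrophage markers on their own scale. Ifit and Oas genes are lowest among the injured in vehicle library 2 and highest among sham in sham library 1, while the 5 Irg genes lie between -0.15 and 0.21 in all 9 libraries.

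Of the transcription factors, all 4 rose in both groups, beside 28.9 percent (TJ0113) and 31.3 percent (vehicle) of all genes tested. For each of the 4, every injured library lay above every sham library. Of all genes tested, 50.5 percent had every TJ0113 library above sham and 45.9 percent every vehicle library. Irf1, which drives many genes of the gamma arm, was at 12.3, 8.20 and 13.9 FPKM in TJ0113 libraries, 8.81, 5.56 and 15.3 FPKM in vehicle libraries and 3.83, 3.12 and 2.37 FPKM in sham libraries. It rose by 1.33 ± 0.32 with TJ0113 (adjusted p = 0.0105) and by 1.03 ± 0.32 with vehicle (adjusted p = 0.0167). Irf7, the factor that amplifies interferon alpha, was at 6.59, 8.63 and 7.05 FPKM in TJ0113 libraries, 5.19, 5.42 and 9.98 FPKM in vehicle libraries and 3.59, 2.26 and 2.82 FPKM in sham libraries, rising by 0.86 ± 0.23 and 0.68 ± 0.23 above sham with TJ0113 and vehicle. Irf9 and Stat2, which act together in the type I complex, also rose in both groups. Irf9 was at 7.30, 7.23 and 9.18 FPKM in TJ0113 libraries, 8.44, 5.95 and 11.5 FPKM in vehicle libraries and 3.27, 2.96 and 3.02 FPKM in sham libraries. Stat2 was at 8.18, 7.85 and 11.1 FPKM in TJ0113 libraries, 7.42, 5.79 and 10.9 FPKM in vehicle libraries and 4.19, 3.6 and 3.48 FPKM in sham libraries. Irf9 is the factor that kept its vehicle call without sham library 2 or 3.

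The sensors recognise viral or misplaced RNA and DNA and trigger interferon production. Ddx58, which encodes RIG-I, was at 11.1, 6.48 and 13.2 FPKM in TJ0113 libraries, 9.78, 7.19 and 15.3 FPKM in vehicle libraries and 3.92, 2.97 and 2.90 FPKM in sham libraries. It rose by 1.10 ± 0.29 with TJ0113 (adjusted p = 0.0118) and by 1.12 ± 0.29 with vehicle (adjusted p = 0.0119). Ifih1, which encodes the sensor of long double-stranded RNA MDA5, was at 2.67, 2.29 and 2.27 FPKM in TJ0113 libraries, 2.79, 2.04 and 3.39 FPKM in vehicle libraries and 1.89, 1.74 and 1.61 FPKM in sham libraries. Every injured library was above sham, yet its change was 0.05 ± 0.15 with TJ0113 (adjusted p = 0.128) and 0.13 ± 0.15 with vehicle (adjusted p = 0.0494), close to that of the median gene. The vehicle call was made in 5 of 19 alternatives and was lost with median-ratio scaling (adjusted p = 0.396) and quantile normalization (adjusted p = 0.865), with a range of 0.00551 to 0.865. Dhx58, which encodes the regulator LGP2, was at 1.57, 1.66 and 1.82 FPKM in TJ0113 libraries, 1.47, 0.865 and 2.18 FPKM in vehicle libraries and 0.725, 0.417 and 0.422 FPKM in sham libraries. Zbp1, a sensor of left-handed nucleic acid that can start necroptosis, was at 2.04, 2.41 and 2.0 FPKM in TJ0113 libraries, 1.58, 1.09 and 2.81 FPKM in vehicle libraries and 0.830, 0.510 and 0.379 FPKM in sham libraries. Both rose in both groups. In all, 3 of 4 sensors were called with TJ0113, beside 28.9 percent of all genes tested. With vehicle 4 of 4 were called, Ifih1 included, beside 31.3 percent of all genes tested.

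The ISG15 system attaches the ubiquitin-like protein Isg15 to other proteins. Isg15 was at 9.34, 12.3 and 9.75 FPKM in TJ0113 libraries, 6.10, 6.47 and 12.4 FPKM in vehicle libraries and 4.26, 2.33 and 2.35 FPKM in sham libraries. The 250 bases before its RefSeq start hold a row of 3 overlapping ISRE core matches, the nearest starting 66 bases before the start. It rose by 1.29 ± 0.27 with TJ0113 (adjusted p = 0.00878) and by 0.90 ± 0.27 with vehicle (adjusted p = 0.0142). Usp18, which removes Isg15 and damps the type I receptor, was at 1.43, 1.79 and 1.2 FPKM in TJ0113 libraries, 1.61, 0.878 and 2.11 FPKM in vehicle libraries and 0.943, 0.619 and 0.757 FPKM in sham libraries. It did not pass (adjusted p = 0.0747 with TJ0113 and 0.0683 with vehicle), and vehicle library 2 lay inside the sham range. Trim25, a ligase that assists RIG-I, was at 13.6, 11.4 and 12.9 FPKM in TJ0113 libraries, 15.1, 12.5 and 14.5 FPKM in vehicle libraries and 13.5, 13.5 and 12.1 FPKM in sham libraries. Its FPKM overlapped between all groups, and its changes relative to the median gene were -0.30 ± 0.12 with TJ0113 and -0.20 ± 0.12 with vehicle; with median-ratio scaling it was called lower with TJ0113 than in sham.

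The other effectors held members well above sham and members at or below it. Ifitm3, a membrane protein that blocks viral entry, was at 94.0, 122 and 117 FPKM in TJ0113 libraries, 86.3, 43.9 and 143 FPKM in vehicle libraries and 36.5, 18.9 and 17.9 FPKM in sham libraries. Its mean FPKM was 4.54 times sham with TJ0113, and it rose by 1.94 ± 0.40 (adjusted p = 0.00916) and, with vehicle, by 1.48 ± 0.40 (adjusted p = 0.0146). Lgals3bp, a secreted binding protein of galectin-3, was at 44.3, 42.6 and 38.7 FPKM in TJ0113 libraries, 37.4, 30.0 and 65.3 FPKM in vehicle libraries and 12.7, 12.0 and 9.39 FPKM in sham libraries. It rose by 1.54 ± 0.25 with TJ0113 (adjusted p = 0.00681) and by 1.51 ± 0.25 with vehicle (adjusted p = 0.00687), the smallest adjusted p among the members in each comparison. Bst2, known as tetherin, which holds virus particles at the cell surface, was at 31.6, 40.0 and 34.5 FPKM in TJ0113 libraries, 31.8, 22.3 and 44.4 FPKM in vehicle libraries and 17.8, 10.6 and 11.6 FPKM in sham libraries. Ifi27, a small mitochondrial protein, was at 29.8, 26.3 and 38.3 FPKM in TJ0113 libraries, 33.7, 20.9 and 45.7 FPKM in vehicle libraries and 15.3, 17.7 and 13.1 FPKM in sham libraries. Both rose in both groups with no overlap with sham.

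Ifi35, a partner of Nmi in cytokine signalling, was at 10.4, 9.87 and 15.3 FPKM in TJ0113 libraries, 10.4, 9.38 and 15.1 FPKM in vehicle libraries and 4.90, 3.90 and 5.08 FPKM in sham libraries. Parp14, a mono-ADP-ribosyltransferase, was at 5.36, 4.11 and 7.08 FPKM in TJ0113 libraries, 6.67, 3.73 and 10.4 FPKM in vehicle libraries and 2.34, 1.72 and 1.46 FPKM in sham libraries. Xaf1, a factor that promotes apoptosis, was at 2.0, 2.35 and 2.17 FPKM in TJ0113 libraries, 1.61, 1.42 and 3.25 FPKM in vehicle libraries and 1.26, 0.851 and 0.705 FPKM in sham libraries. These 3 rose in both groups, and no injured library was in the sham range. Of the alternatives that tested Xaf1, 11 of 18 made its TJ0113 call and 6 of 18 its vehicle call.

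Rsad2, Cmpk2 and Ifi44 did not rise in either group. Rsad2 encodes viperin, an enzyme that makes a chain-terminating nucleotide, and Cmpk2, its neighbour on the opposite strand of chromosome 12, supplies that enzyme's substrate. The 250 bases before the RefSeq start of Rsad2 (GRCm38.p6, minus strand, chr12:26456453-26456702) are shown because they hold an ISRE core match, in capitals as read on the opposite strand and starting 120 bases before the start, in a gene that did not rise; it was added after its values were seen.
Rsad2: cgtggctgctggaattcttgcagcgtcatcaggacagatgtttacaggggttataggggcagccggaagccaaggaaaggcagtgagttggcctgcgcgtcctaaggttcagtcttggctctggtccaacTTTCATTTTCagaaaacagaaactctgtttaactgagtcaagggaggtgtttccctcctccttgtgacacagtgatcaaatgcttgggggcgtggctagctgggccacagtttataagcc
Rsad2 was at 3.52, 4.91 and 2.76 FPKM in TJ0113 libraries, 3.68, 2.18 and 4.57 FPKM in vehicle libraries and 5.71, 4.18 and 2.98 FPKM in sham libraries. Sham library 1 was the highest of the 9, the groups overlapped, and the changes were -0.42 ± 0.27 with TJ0113 (adjusted p = 0.664) and -0.54 ± 0.27 with vehicle (adjusted p = 0.468). Cmpk2 was at 3.40, 3.19 and 2.73 FPKM in TJ0113 libraries, 2.74, 2.01 and 3.54 FPKM in vehicle libraries and 3.25, 2.49 and 2.24 FPKM in sham libraries, and its changes were -0.09 ± 0.18 with TJ0113 and -0.27 ± 0.18 with vehicle. Ifi44, a cytoplasmic protein of poorly known function, was at 1.08, 1.83 and 1.22 FPKM in TJ0113 libraries, 1.51, 0.652 and 1.59 FPKM in vehicle libraries and 2.49, 1.23 and 1.2 FPKM in sham libraries. Its level in sham library 1 was 2.05 times the mean of the other sham libraries. In all 3 genes the sham range crossed that of each injured group.

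**Figure D4:**
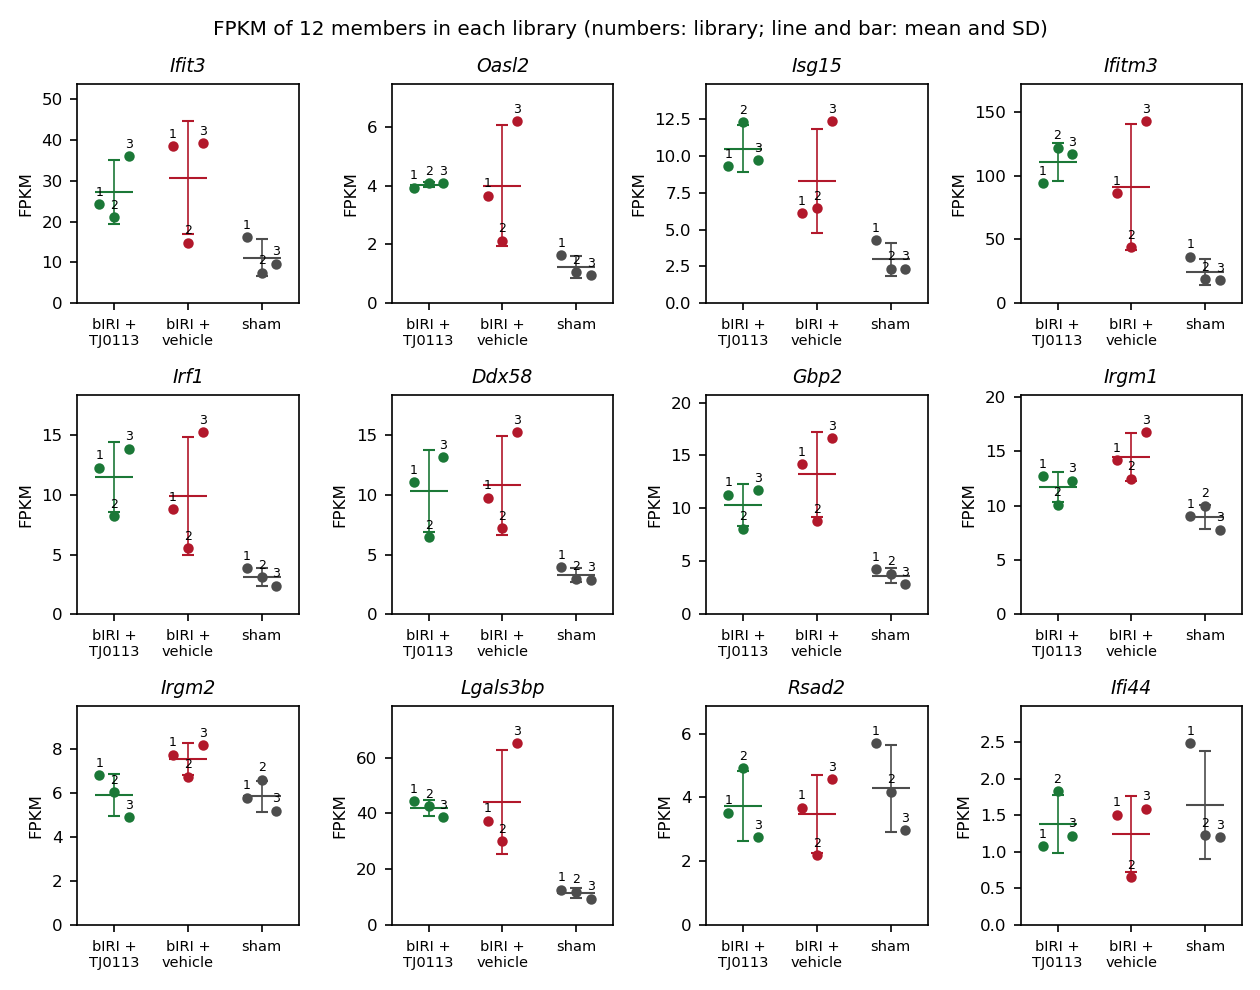
FPKM of 12 members in each library, by group, with library numbers, means and SD (n = 3). Gbp2, Irf1, Ddx58, Isg15, Oasl2, Ifitm3 and Lgals3bp are above sham in all 6 injured libraries, Ifit3 overlaps through vehicle library 2 and sham library 1, and Irgm2, Rsad2 and Ifi44 overlap between the injured groups and sham except that the vehicle libraries of Irgm2 lie above it.

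The sequence in front of the members was compared with all promoter windows. RefSeq windows (GRCm38.p6) were at hand for 31 of the 42 members, and the 250 bases before the start were searched on both strands. The ISRE core was found for 17 of 31 members, against 2.98 percent of the 32851 windows of the table, and the GAS letters TTCNNNGAA for 9 of 31, against 7.02 percent. All 8 Gbp and Irg genes with a window held the ISRE core and 5 of 8 the GAS letters, while 5 of 7 Ifit and Oas genes held the ISRE core and 2 of 7 the GAS letters. Irgm1, Irgm2, Igtp and Tgtp1 are among those 8, and Ifit3, Ifit3b and Ifit1 among those 5, while the windows of Ifit2 and Oasl2, which rose in both groups, held no ISRE core. A match is a description of letters and not of a bound site.

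Between TJ0113 and vehicle, the comparison that bears on the compound, no member was called. In limma none of 41 passed the adjusted threshold, none had an unadjusted p under 0.05, and 927 of all 15453 genes tested did. Relative to the median gene 25 members were higher and 15 lower with TJ0113, with a median of 0.06. The smallest p-values belonged to the Irg regulators Irgm2 (fitted difference -0.31, 95% interval -0.64 to 0.01, adjusted p = 0.796) and Irgm1 (-0.28, -0.62 to 0.05, adjusted p = 0.81). For Irgm2, TJ0113 library 1 lay above vehicle library 2, and for Irgm1 TJ0113 library 1 did too, so the groups overlapped. All 5 Irg genes were lower with TJ0113 relative to the median gene, by 0.07 to 0.28; the members of a family share their libraries and are not replicates.

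The members that stood farthest in the other direction were Ifitm3 (fitted difference 0.43, 95% interval -0.48 to 1.34) and Isg15 (0.35, -0.25 to 0.96). For both, the mean with TJ0113 was the higher (Ifitm3 111 ± 15.0 FPKM with TJ0113 and 91.1 ± 49.7 FPKM with vehicle, SD, n = 3 each; Isg15 10.5 ± 1.61 FPKM with TJ0113 and 8.31 ± 3.51 FPKM with vehicle), and vehicle library 3 was the highest library of each gene. The intervals set what this comparison could show. The interval ran over -0.98 to 0.80 for Ifit3 and over -0.52 to 0.44 for Oas2, so that TJ0113 and vehicle are not shown to be alike. The result turned on which vehicle library was counted: without vehicle library 2 the members' median was -0.08 and 17 of 41 were positive, and without vehicle library 3 it was 0.17 and 31 of 41 were positive. At an unadjusted p under 0.05 there were then 4 and 6 members, and none after adjustment.

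**Figure D5:**
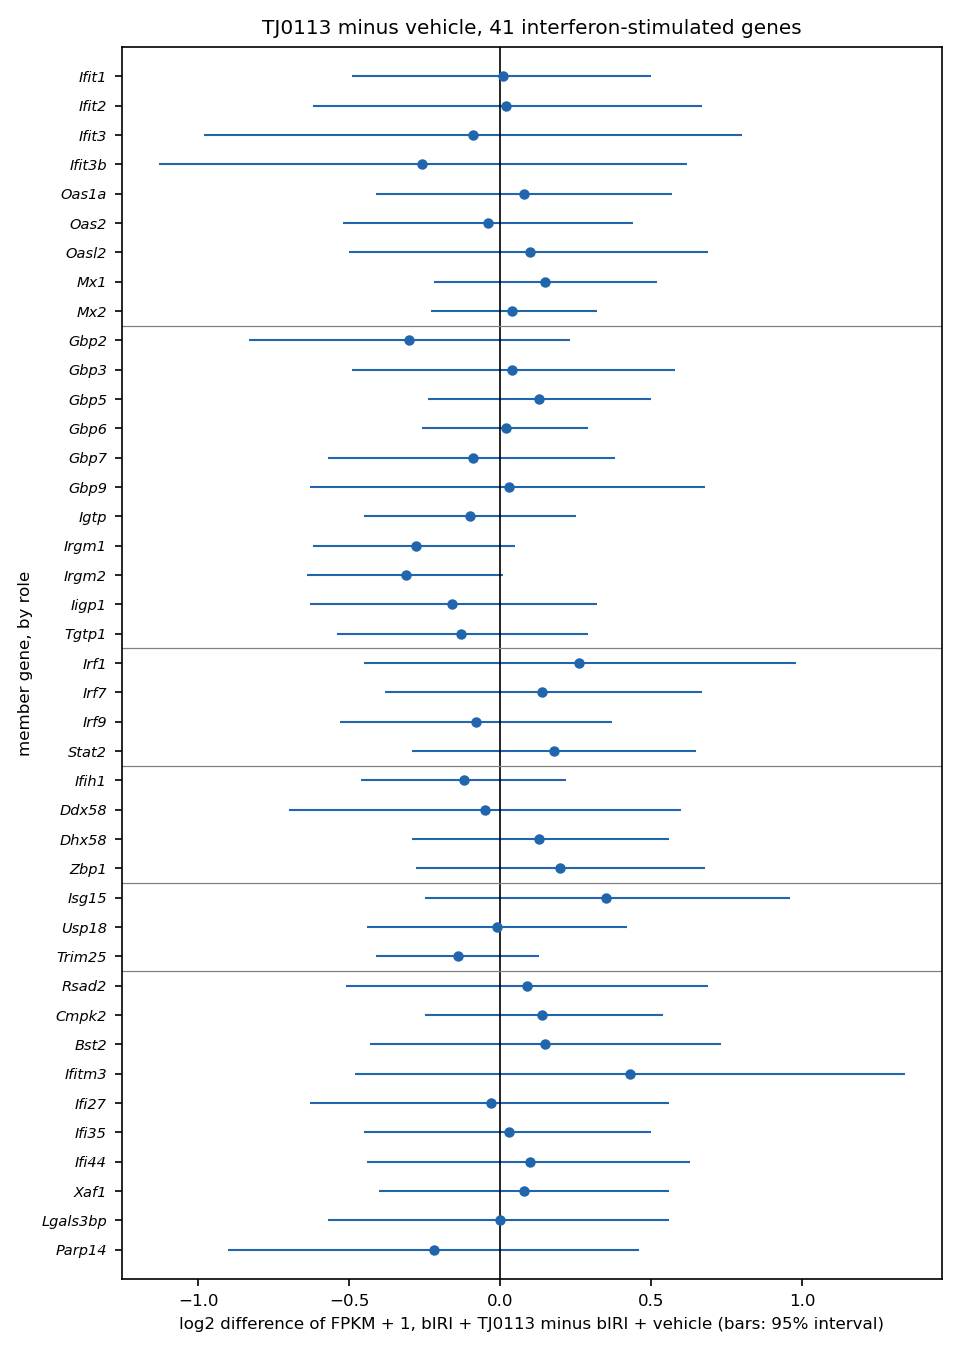
Fitted log2 difference of FPKM + 1, TJ0113 minus vehicle, for 41 members with 95% intervals; positive means higher with TJ0113. Every interval spans 0, with Irgm2 (-0.64 to 0.01) the nearest to lying on one side and Ifitm3 (-0.48 to 1.34) the widest.

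The genes that make, receive and damp interferon were read from lists beside the members. Of 17 ligand genes listed 9 were found in the table, and Il18, which encodes a cytokine that induces interferon gamma in T and NK cells, was the 1 above the filter, at 2.31, 1.95 and 3.32 FPKM in TJ0113 libraries, 2.56, 1.70 and 3.14 FPKM in vehicle libraries and 2.26, 1.96 and 2.36 FPKM in sham libraries. It did not pass. The interferon genes themselves were at or near 0: Ifnb1 was listed above 0 in vehicle library 1 alone, at 0.037 FPKM, and Ifng reached 0.0866 FPKM in TJ0113 libraries, 0.101 FPKM in vehicle libraries and 0.0224 FPKM in sham libraries. Il12b and Il12a, the subunits of interleukin-12, which induces interferon gamma, were at most 0.153 and 0.104 FPKM in TJ0113 libraries, 0.147 and 0.170 FPKM in vehicle libraries and 0.059 and 0.0338 FPKM in sham libraries.

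Of the 10 receptor and kinase genes 6 rose with TJ0113 and 6 with vehicle (medians 0.50 and 0.55), beside 28.9 and 31.3 percent of all genes tested. The chains of the gamma receptor were among them. Ifngr1 was at 32.1, 21.4 and 36.4 FPKM in TJ0113 libraries, 36.3, 20.1 and 52.9 FPKM in vehicle libraries and 10.6, 10.9 and 9.61 FPKM in sham libraries, and rose by 1.15 ± 0.31 with TJ0113 (adjusted p = 0.0131) and by 1.32 ± 0.31 with vehicle (adjusted p = 0.011). Ifngr2 was at 15.8, 9.34 and 15.4 FPKM in TJ0113 libraries, 19.1, 10.4 and 23.6 FPKM in vehicle libraries and 4.64, 4.32 and 4.59 FPKM in sham libraries, and it rose in both groups. Jak1, the kinase both receptors share, was at 23.1, 18.8 and 21.5 FPKM in TJ0113 libraries, 23.8, 17.2 and 27.5 FPKM in vehicle libraries and 18.2, 20.3 and 17.5 FPKM in sham libraries, and did not pass.

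Of 17 sensors and adaptors tested 9 rose with TJ0113 and 14 with vehicle, beside 28.9 and 31.3 percent of all genes tested. Between TJ0113 and vehicle none of the 17 passed (lowest adjusted p = 0.819). Irf3, the factor that switches on the interferon beta gene, rose by 0.61 ± 0.18 with TJ0113 (adjusted p = 0.0107) and 0.45 ± 0.18 with vehicle (adjusted p = 0.0163), while its kinase Tbk1 did not pass in either group and the adaptor Mavs passed with vehicle (0.12 ± 0.11, adjusted p = 0.0251) and not with TJ0113 (0.00 ± 0.11, adjusted p = 0.0951). Tmem173, which encodes STING and is named here after its values were seen, stood highest of this list: it was at 10.1, 7.45 and 13.5 FPKM in TJ0113 libraries, 10.6, 5.18 and 16.8 FPKM in vehicle libraries and 1.18, 0.826 and 1.14 FPKM in sham libraries. It rose by 2.18 ± 0.35 with TJ0113 (adjusted p = 0.00685) and by 2.12 ± 0.35 with vehicle (adjusted p = 0.00688). Of 9 feedback inhibitors 6 rose in each group, beside the same shares of all genes. Socs3, which blocks the kinases of cytokine receptors, was at 13.6, 7.70 and 26.1 FPKM in TJ0113 libraries, 25.9, 13.5 and 33.4 FPKM in vehicle libraries and 0.914, 0.778 and 0.552 FPKM in sham libraries. The phosphatase Ptpn6 rose with TJ0113 (0.30 ± 0.18, adjusted p = 0.0398) and stood at 0.19 ± 0.18 with vehicle (adjusted p = 0.0601), and Ptpn11 did not pass in either.

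A list of 58 further interferon-induced genes was read in the same way. Of 53 tested 37 rose with TJ0113 and none fell (median 0.49), beside 28.9 percent of all genes tested that rose. With vehicle 32 rose and 1 fell (median 0.48), beside 31.3 percent that rose. The 1 that fell was Samd9l, a restriction factor of poxviruses and among the most abundant of the list, at 32.4, 31.1 and 32.7 FPKM in TJ0113 libraries, 35.5, 23.4 and 31.6 FPKM in vehicle libraries and 41.4, 42.4 and 40.4 FPKM in sham libraries. Every injured library was below every sham library, and the change was -0.62 ± 0.15 with TJ0113 (adjusted p = 0.0895) and -0.76 ± 0.15 with vehicle (adjusted p = 0.0405). Ifi27l2a was at 40.3, 80.6 and 32.1 FPKM in TJ0113 libraries, 36.2, 31.9 and 48.0 FPKM in vehicle libraries and 13.2, 38.3 and 12.5 FPKM in sham libraries, where sham library 2 and not sham library 1 was the high one. Shisa5 did not pass in either group.

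Markers of several cell types differed from sham beside these genes. Of all 15453 genes tested, 28.9 percent rose and 915 genes fell with TJ0113, and 31.3 percent rose and 837 genes fell with vehicle. All 10 proximal tubule markers were below the median gene in both injured groups (median -1.10 with TJ0113 and -1.36 with vehicle), and 2 fell with TJ0113 and 4 with vehicle. Of 12 macrophage markers 11 rose with TJ0113 and 11 with vehicle, and Lyz2, the lysozyme of macrophages and granulocytes, was at 296, 272 and 560 FPKM in TJ0113 libraries, 581, 168 and 1060 FPKM in vehicle libraries and 17, 10.8 and 10.4 FPKM in sham libraries. Of 7 T and NK cell markers tested, from 14 listed, 5 rose with TJ0113 and 4 with vehicle; the 14 summed to 14.8 to 21.2 FPKM in TJ0113 libraries, 9.73 to 26.6 FPKM in vehicle libraries and 2.59 to 4.59 FPKM in sham libraries. Of 10 endothelial markers 1 rose with TJ0113 (Egfl7) and 0 with vehicle. The list for plasmacytoid dendritic cells, the main makers of type I interferon, was of little use in this tissue, since it holds the member Bst2 and Klk1, which ran at 508 to 2170 FPKM in these libraries. Of its 6 genes tested 2 rose in each injured group. In each group 3 of the 6 were below the median gene (medians -0.30 with TJ0113 and 0.00 with vehicle). The defining marker Siglech, below the filter, was at 0.133 to 0.311 FPKM in TJ0113 libraries, 0.108 to 0.265 FPKM in vehicle libraries and 0.0722 to 0.0986 FPKM in sham libraries. None of the markers was at 0 in all libraries, and their part in the levels of the interferon-stimulated genes was not tested.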

How the data were processed

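The authors deposited 1 table of FPKM per gene for 9 libraries of mouse renal cortex RNA, read here as deposited. Reads were aligned with HISAT2, per the submitters' processing notes; its version and the tool, genome build and gene models behind the table are not given in the sources used. Per the labels' protocols, RNA was extracted with TRIzol and sequenced paired-end from an mRNA kit. GENCODE M21 (GRCm38) named 33893 of 34669 gene IDs (97.8 percent). FPKM of low genes, multiplied by exon length, fell in equal steps (98.7 to 99.0 percent of values below 20 steps within 0.02 of a whole step), whose number per library stands for depth; whether a step is a read or a fragment was not settled. The main test was limma 3.58.1 (R 4.3.3, trended variance) on log2(FPKM + 1) over all 9 libraries, with genes of a mean of at least 0.5 FPKM and a Benjamini-Hochberg adjusted p under 0.05. Tables were made in Python 3.11.15 with pandas 2.3.3, numpy 2.4.6 and scipy 1.17.1, figures were drawn with matplotlib 3.10.9, and the fit was tested on simulated data.

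The members and lists were chosen with earlier results of these data known. Full statistics were due for 28 members. These were the 4 of each role with the highest mean FPKM and the members with a negative vehicle change. They also held the pair with the smallest p between TJ0113 and vehicle. Any member below the filter was due as FPKM and was not among the 28. For the pathway and marker lists, 3 genes with the highest mean were due. Levels of the remaining members are given so that each is accounted for, and other genes named were chosen after their values were seen. Alternatives were a pseudocount of 0.1, other filters, scalings and variance settings, a replicate block and leaving out each library. Labels write the compound both as TJ013 and as TJ0113.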

Additional observations from a re-analysis of the deposited data

How the results depend on the processing

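Counts of members above sham moved with the libraries, the filter and the scaling. Leaving out 1 library at a time gave 13 to 31 members higher with TJ0113 and 5 to 33 with vehicle. The share of all genes called higher in these fits was 7.02 to 38.8 percent with TJ0113 and 4.75 to 48.1 percent with vehicle. For the Ifit, Oas and Mx genes the counts were 2 to 9 and 1 to 9, and for the Gbp and Irg genes 1 to 7 with vehicle. Without a filter on low values, 20 members were higher with vehicle (7.17 percent of 34669 genes, against 31.3 percent of 15453 as reported). In that fit 5 Ifit, Oas and Mx genes were higher in each comparison with sham (7.69 percent of all genes with TJ0113). Quantile normalization gave 19 members with vehicle (13.2 percent of all genes) and 4 Ifit, Oas and Mx genes in each comparison (15.5 percent of all genes with TJ0113). Median-ratio scaling gave 5 of those with TJ0113 and 4 with vehicle (17.3 and 15.4 percent of all genes). A filter at a mean of 2 FPKM, which left 7 of those genes tested, gave 5 with TJ0113 (32.1 percent of all genes). The cause was not tested, beyond the fewer genes or libraries that some settings hold. Over all genes, higher against lower calls were 4469 and 915 with TJ0113 and 4839 and 837 with vehicle; with median-ratio scaling 2669 and 3166, and 2379 and 2472; with quantile normalization 2391 and 2854, and 2041 and 2320. No call was made between TJ0113 and vehicle under any alternative, and no called change of the 28 members recomputed reversed. Leaving out vehicle library 2 and sham library 1 together, chosen after seeing the data, gave 30 members with TJ0113 and 33 with vehicle, beside 28.6 and 39.4 percent of all genes. The libraries share only a replicate number: same-numbered deviations correlated at -0.06 to 0.56 between TJ0113 and vehicle, and at -0.24 to -0.08 between vehicle and sham. With the replicate as a block, 28 members were higher with TJ0113 and 30 with vehicle, beside 32.2 and 34.9 percent of all genes. In that fit 0 members differed between TJ0113 and vehicle.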
